A study of Bos indicus with 12 samples.

Results

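Sharp borders, places where unmethylated DNA lies directly beside methylated DNA, were rare under the rule used here among the measured windows of these animals' muscle. The 29 autosomes were tiled into windows of 100 bp and the reads of all 12 animals were pooled in each window. A border was a pair of directly adjacent windows, each with at least 3 measured cytosines, of which 1 had a pooled methylation level under 10% and the other a level above 70%. This rule chose 3 of 22955 adjacent pairs (0.0131%): chr19:57632101-57632300, chr21:24613501-24613700 and chr8:106690301-106690500 in ARS-UCD1.2/bosTau9 coordinates. The chromosome 19 border fell by 55.0 percentage points between neighbouring CpGs 11 bp apart, whereas on chromosomes 21 and 8 the change lay in a stretch of 146 bp and 102 bp without any measured cytosine. Since the borders were chosen by their pooled levels, the contrast between the windows of a border is a description and was not tested. The number of borders depended on the rule, with 131 of 69348 pairs at 1 or more cytosines per window and 10 of 21825 with windows of 200 bp.

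Reduced representation bisulfite sequencing (RRBS) was used on *longissimus thoracis* muscle, the loin muscle along the back, of Nelore (*Bos indicus*) steers, with 1 library per animal. RRBS cuts DNA with the enzyme *MspI* and reads 50 bp from the cut ends, after bisulfite has turned unmethylated cytosines into bases sequenced as thymine. The Tough group held 6 animals with a higher shear force, the force needed to cut through the meat and thus a measure of low tenderness, and the Tender group held 6 animals with a lower one. Per the methods, the animals were chosen as extremes of the estimated breeding value for shear force, with different sires within each group. All animals were feedlot steers kept under the same conditions, of which an average age only is given, and they received no treatment that differed between the groups. Coverage summed over the 635469 cytosines measured in all 12 animals was between 18399401 and 23470740 per animal, with a median of 25 to 33 scaled reads per cytosine. A read is counted at every cytosine it covers, so coverage summed over a window or a library can exceed the number of reads. A scaled read is a read multiplied by 1 factor per animal, between 1 and 1.27, which the authors applied before they deposited the table, and every read number below is scaled. Muscle holds several cell types, and a level between the extremes can come from a mixture of cells or from partly methylated DNA in each cell, which cannot be told apart here.

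Cytosine methylation in mammals is found mainly at CpG, a cytosine followed by guanine, and most CpGs of the genome are methylated. Stretches dense in CpG, the CpG islands, often at the start of genes, usually stay unmethylated, and proteins bound there keep the methylating enzymes away. The DNA at their edges, the CpG island shores, is known to vary more between tissues than the islands themselves. Which genes, exons or islands lie at the 3 borders was not analysed here, because no annotation of this genome build was at hand.

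Nearly all neighbouring windows were alike. Of the 22955 pairs, 17949 (78.2%) had both windows under 10% and 1844 (8.03%) had both above 70%. The pooled levels of neighbours differed by a median of 0.768 percentage points, and 99% of the pairs differed by less than 28.2. A difference above 50 percentage points occurred in 21 pairs and one above 60 in 9. The chromosome 19 border had the highest difference of all pairs, 75.4 percentage points, of which the rule sets only a lower limit. Of the 18718 pairs with a window under 10%, 766 had a neighbour between 10% and 70% and 3 a neighbour above 70%.

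**Figure D1:**
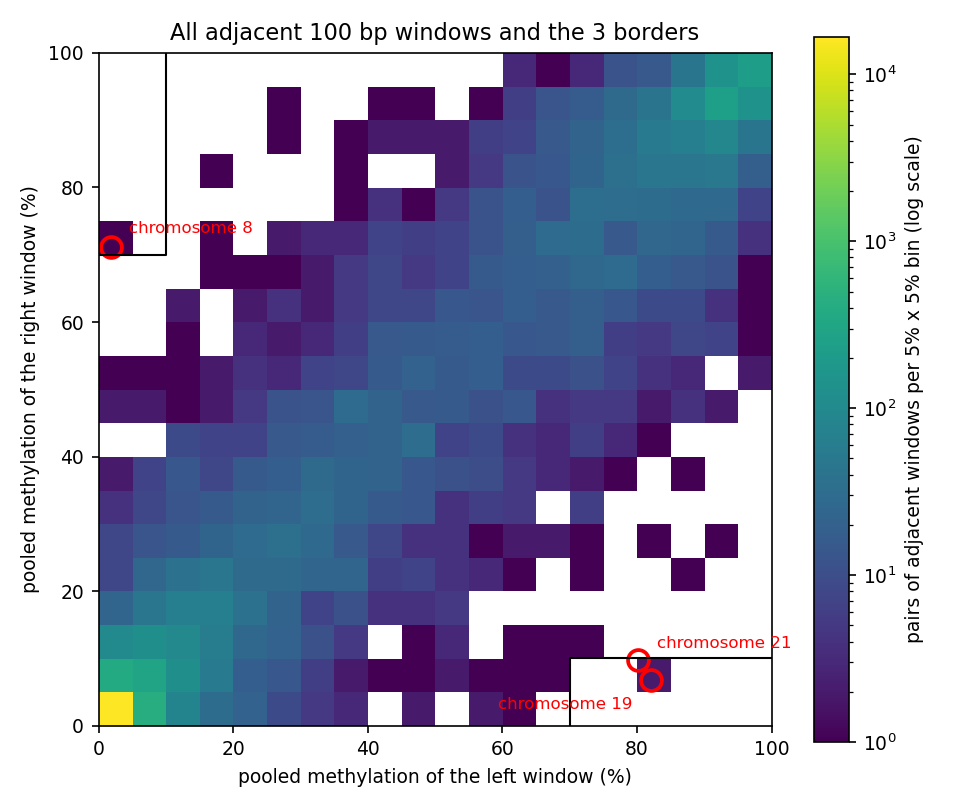
Pooled methylation level of the left window (horizontal axis, %) and of the right window (vertical axis, %) for the 22955 pairs of adjacent windows, as the number of pairs in bins of 5% by 5% on a log colour scale. Black lines mark the area of the rule, and red circles mark the 3 borders, which are the only pairs within it; most pairs lie at the lower left corner, where both windows are under 10%.

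The margins of the rule were narrow. Just inside it were the unmethylated window of the chromosome 21 border at 9.71% and the methylated window of the chromosome 8 border at 71.1%. Just outside it were chr23:17679501-17679700, with windows at 13.5% and 71.8%, and chr11:106566801-106567000, with windows at 5.11% and 66.9%. With limits of 20% and 60% there were 14 pairs, of which 6 had the unmethylated window on the left and 8 on the right. They lay on 10 chromosomes, with 3 of them on chromosome 21. One of the 14, chr8:106690501-106690700, began where the chromosome 8 border ended, and was its far side.

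On chromosome 19 the left window was methylated and the right window unmethylated. The pooled level was 82.1% over 3 cytosines with a summed coverage of 2455 on the left and 6.76% over 4 cytosines with 1258 on the right. Going from left to right, the pooled level was 90.3% at 57632136, 79.2% at 57632144 and 60.9% at 57632196, all on the minus strand. It was 5.90% at 57632207, on the same strand, and it stayed between 6.59% and 7.30% at the remaining 3 cytosines, of which the last was 57632270. The methylated side thus declined towards the border, while the unmethylated side was flat. From the last CpG at 70% or more to the first at 10% or less was 63 bp with 1 CpG between, and from 60% to 20% was 11 bp with none between.

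The step of 11 bp on chromosome 19 was measured by nearly equal numbers of reads on its sides, 274 at 57632196 and 271 at 57632207. The numbers of an animal differed by at most 3 between these cytosines, which are closer together than a read is long. At the methylated side the animals ran from 33.3% in Tender 5 to 83.3% in Tough 5, and at the unmethylated side from 0% in 6 animals to 18.2% in Tender 1. The step between these cytosines had a lowest value of 22.2 percentage points in Tender 5, a median of 54.6 and a highest value of 83.3 in Tough 5. Between 13 and 31 reads per cytosine and animal lay behind these values. The CpGs farther left, 57632136 and 57632144, had 57 to 133 reads per animal and lay 52 bp or more from 57632196, so they came from other reads.

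On chromosome 21 the left window was also the methylated one. Its pooled level was 80.2% over 3 cytosines with a summed coverage of 1441, and that of the right window was 9.71% over 3 cytosines with 937. The methylated cytosines lay within 15 bp of each other on the minus strand, with 85.7% at 24613505, 85.7% at 24613507 and 69.0% at 24613519. After a gap of 146 bp came 24613665 at 8.72%, 24613675 at 3.34% and 24613700, the last base of the window, at 16.7%. Here too the methylated CpG nearest to the border was the lowest on its side. The transition from 70% to 10% took 158 bp, nearly all of it the gap, so its course was not measured.

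On chromosome 8 the order was the reverse, with the unmethylated window on the left. The pooled level was 1.77% over 6 cytosines with a summed coverage of 1359 on the left and 71.1% over 7 cytosines with 5615 on the right. The 6 cytosines from 106690321 to 106690361 had pooled levels of 7.08%, 2.21%, 0%, 1.32%, 0% and 0%, so the 2 nearest to the border were at 0% in every animal. After 102 bp without measured cytosine, the level at 106690463 was 70.9%. There was thus no measured CpG at an intermediate level between the sides.

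**Figure D2:**
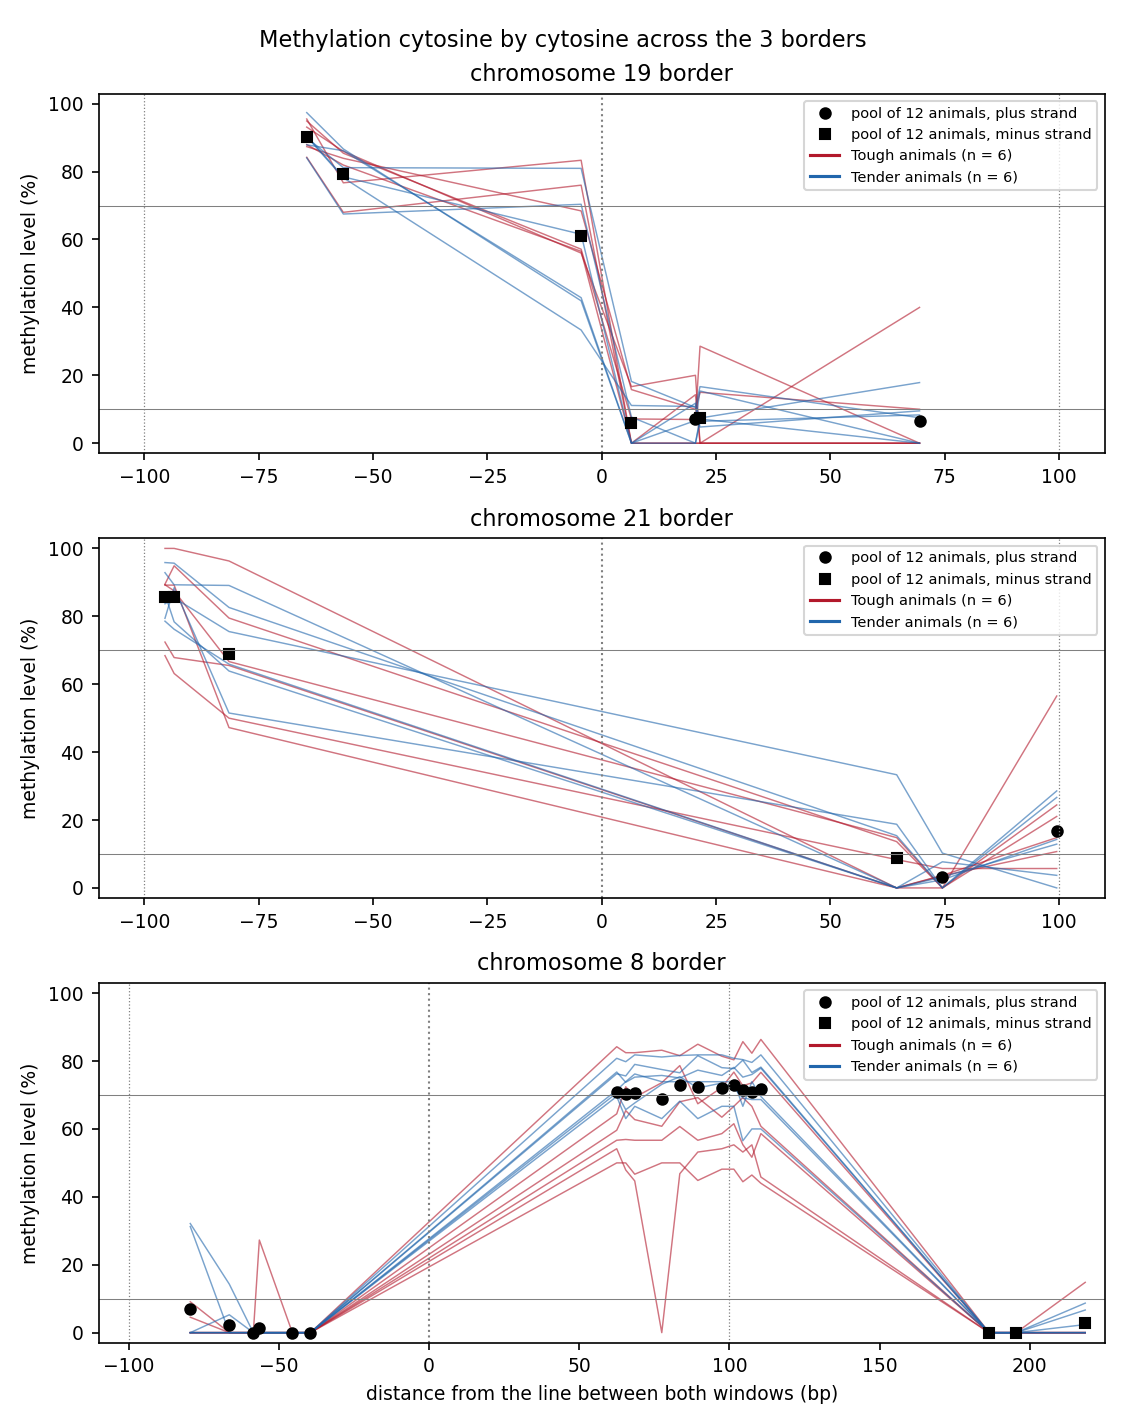
Methylation level (vertical axis, %) of each measured cytosine against its distance from the line between both windows of a border (bp), with negative distances on the left. Thin lines are the 12 animals (red, Tough; blue, Tender), black circles and squares are the pool on the plus and the minus strand, dotted lines are window edges and grey lines are at 10% and 70%. The drop on chromosome 19 falls between neighbouring CpGs beside the window line, while the lines on chromosomes 21 and 8 cross a gap without cytosines, and on chromosome 8 the level falls again on the right.

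The methylated side of the chromosome 8 border was an isolated stretch. It held 11 CpGs from 106690463 to 106690511, all measured on the plus strand and spanning 49 bp, about the length of 1 read, with pooled levels between 68.7% and 73.1%. Of the 10 distances between these CpGs, 8 were multiples of 3 bp. After another 76 bp without measured cytosine, 7 cytosines on the minus strand from 106690587 to 106690692 had pooled levels between 0% and 5.69%. Within 5000 bp of the window line, the other 8 cytosines on the left had pooled levels of 0.254% to 4.45%, and of the 13 on the right, 9 were under 10% and the other 4 belonged to the stretch. The chromosome 8 border was therefore the left edge of a short methylated stretch with unmethylated CpGs on both sides.

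The reads behind the chromosome 8 stretch differed from those around it. The mean number of reads per animal had a median of 66.6 over the CpGs of the stretch, 18.9 over the 6 cytosines before it and 26.8 over the 7 after it, so the stretch had 3.53 times the reads of the cytosines before it. The median over the cytosines of the methylated window ran from 23 reads in Tender 2 to 114 in Tough 5, a 4.96-fold range, against 11 to 28 in the unmethylated window. Among all autosomal windows with 3 or more cytosines, 97.7% had fewer reads per cytosine than the methylated window and 2.95% had fewer than the unmethylated one. The methylated window on chromosome 19 was also deep, with more reads per cytosine than 97.9% of windows. The part of read depth in the methylation levels of these windows was not tested.

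**Figure D3:**
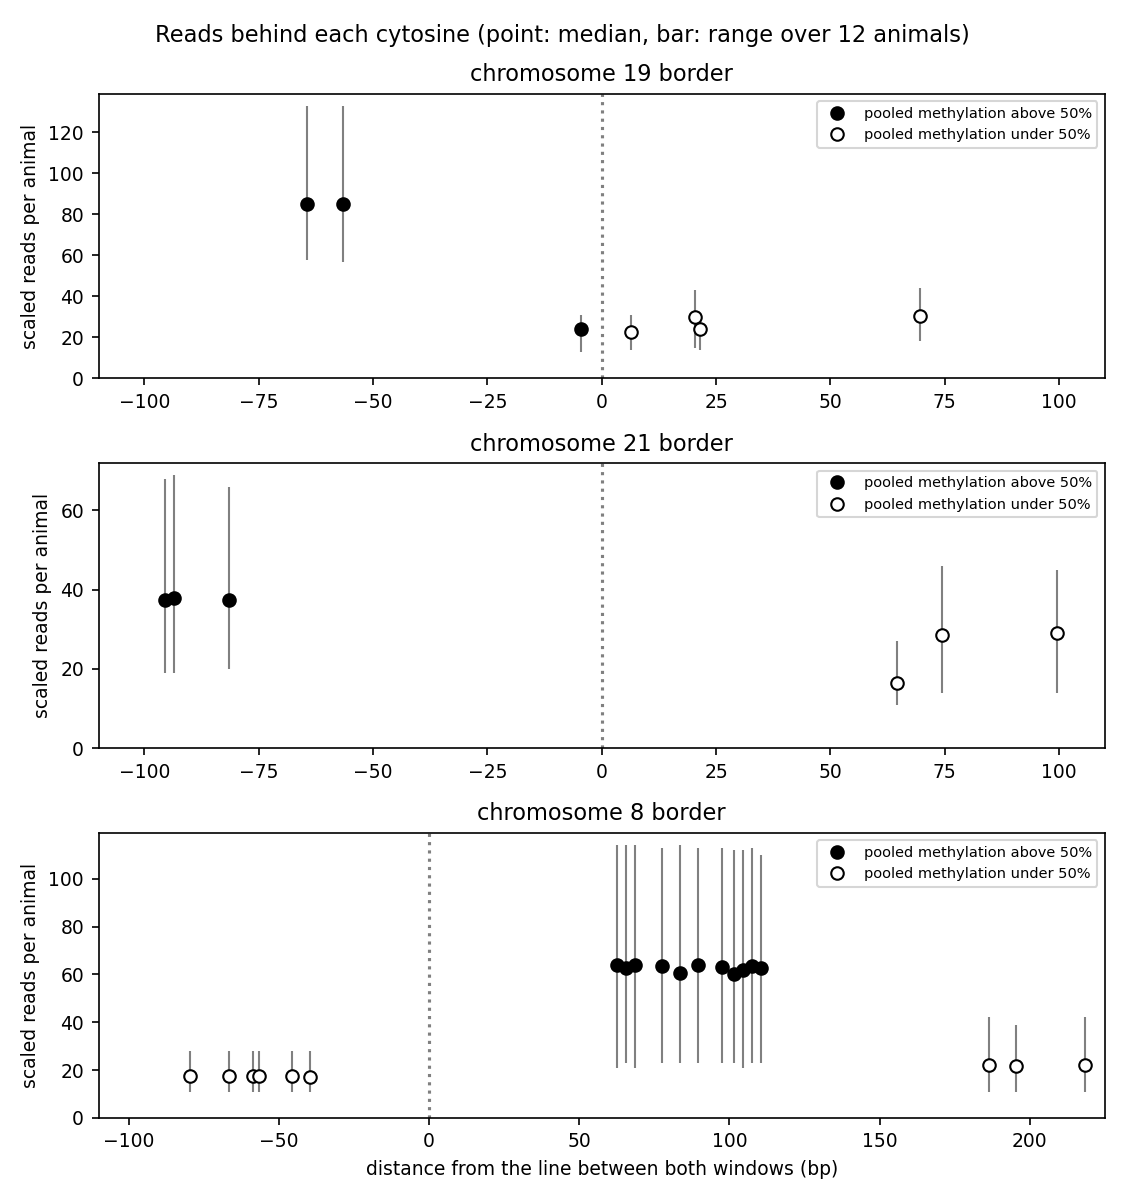
Scaled reads per animal (vertical axis) at each measured cytosine of the 3 borders against the distance from the window line (bp), with the median of the 12 animals as a point and their range as a bar; filled points have a pooled methylation level above 50%. On chromosome 8 every methylated CpG has a higher median than every unmethylated cytosine shown.

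Farther away, the surroundings of the borders on chromosomes 19 and 21 were unlike each other. On chromosome 21 the unmethylated side continued, since of 21 cytosines within 5000 bp on the right 13 were under 10% and the remaining 8, which lay 1298 to 1344 bp from the window line, were between 20.9% and 41.4%. On chromosome 19 the nearest cytosine on the right was 2079 bp away, and the only 2 cytosines within 5000 bp there had levels of 71.8% and 69.2%. No cytosine was measured within 5000 bp on the left of either border, so the extent of their methylated sides is not known from these data.

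Every animal had a step at every border, although not every animal met the rule. A step in the direction of the pool was found at all 3 borders in all 12 animals. These animals were also the pool that chose the borders, so their steps are a description. Taking the deepest cytosine of a window as the number of its reads, the 95% Wilson interval of an animal was between 9.41 and 33.3 percentage points wide for unmethylated windows and between 11.9 and 39.4 for methylated ones, which covers counting error only. On chromosome 19 the step between the windows had a lowest value of 65.6 percentage points in Tough 6, a median of 75.1 and a highest value of 82.9 in Tough 5. On chromosome 21 it had a lowest value of 54.2 in Tough 1, a median of 70.5 and a highest value of 84.2 in Tender 6. On chromosome 8 it had a lowest value of 43.1 in Tough 2, a median of 69.2 and a highest value of 82.9 in Tough 5, the widest range of the 3 borders.

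Applied to 1 animal at a time, the rule was met by 8 animals at the chromosome 19 border, by 7 at the chromosome 8 border and by 5 at the chromosome 21 border. On chromosome 19 the methylated window was above 70% in all 12 animals, from 75.2% to 88.0%, and 4 animals missed the rule with an unmethylated window between 10.6% in Tender 5 and 18.0% in Tough 6. On chromosome 8 the unmethylated window was under 10% in all 12 animals and 5 missed the rule with a methylated window between 43.1% in Tough 2 and 65.7% in Tender 3. On chromosome 21 both sides failed, with 5 unmethylated windows between 12.3% and 20.97% and 2 methylated windows of 60.3% in Tough 1 and 68.6% in Tough 4. In 7 animals no methylated read at all was seen in the unmethylated window of chromosome 8, which with 14 to 27 reads at the deepest cytosine allows a level of up to 11.1% to 21.4%. The same was so on chromosome 19 in Tough 1 and Tough 2, with 33 and 37 reads at the deepest cytosine and limits of 9.09% and 8.11%.

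Each animal alone had between 1 pair that met the rule, in Tough 6, and 7 in Tender 1, with a median of 4. Together 16 pairs met it in at least 1 animal, 6 of them in a single animal, 2 of them in 6 or more and none in all 12. Of the 16 pairs, 8 were found in animals of both groups, 2 in Tough animals only and 6 in Tender animals only. The difference in these numbers was not tested. A pair found in a single animal can only belong to 1 group. Such pairs were 2 in Tough 3, 2 in Tender 1 and 2 in Tender 2. The counts of 2 and 6 therefore do not show an excess in either group. The pair with the next most animals after the 3 borders was chr5:45200801-45201000, which met the rule in 4 Tender animals and no Tough animal and had pooled levels of 58.2% and 1.24%. Borders of the pool made up 3 of the 5 pairs in Tender 4, 3 of the 4 in Tender 6 and none of the single pair in Tough 6.

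**Figure D4:**
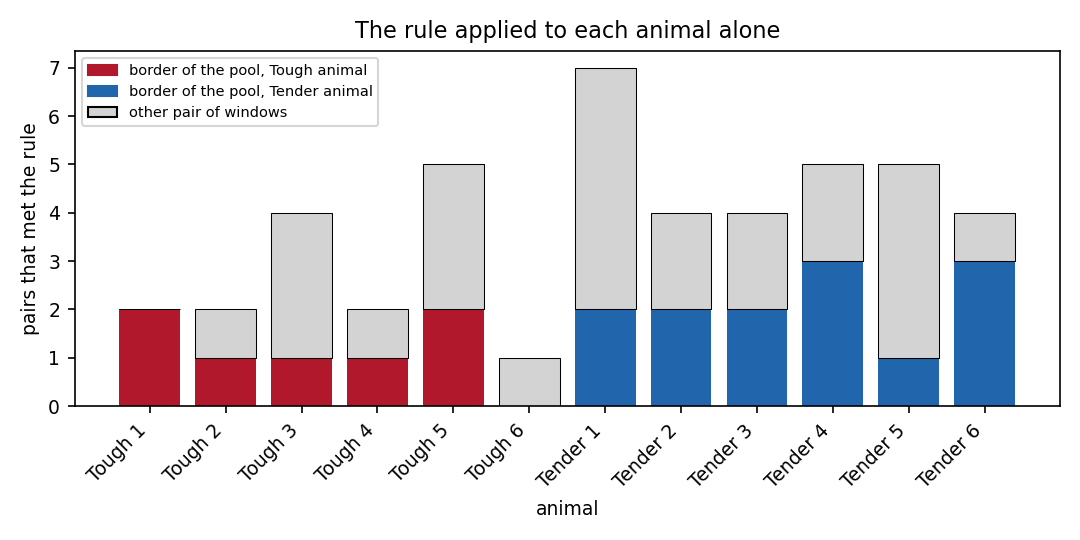
Number of pairs of adjacent windows (vertical axis) that met the rule when it was applied to each of the 12 animals alone, with the borders of the pool in colour (red, Tough; blue, Tender) and other pairs in grey. Counts run from 1 in Tough 6 to 7 in Tender 1.

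How far the choice rested on single animals was read by leaving out each animal and choosing borders on the other 11. The chromosome 19 border was chosen for all 12 left-out animals, the chromosome 8 border for 10 and the chromosome 21 border for 7, and no other pair was chosen. Which animals these were followed from their own levels. On chromosome 21 the border was lost without each of the 5 animals with an unmethylated window of 4.29% to 6.36%, and on chromosome 8 without those with the highest methylated windows, Tough 5 at 82.9% and Tender 1 at 81.3%. The levels of the animals left out are therefore no independent check of the borders. Without Tender 1 only the chromosome 19 border was chosen, and without Tough 1, Tough 4, Tough 5, Tender 3 or Tender 6 there were 2 borders.

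The position of the border was compared by splitting the CpGs of both windows, with strands merged, into a left and a right part so that a binomial model with 1 level per part had the highest likelihood. On chromosome 8 this split fell into the same gap, 106690361 to 106690463, in all 12 animals. On chromosome 21 it fell into the gap of 146 bp in 10 animals, and in Tough 3 and Tender 5 between 24613507 and 24613519, which moved its midpoint 79 bp to the left, where the log-likelihood was better by only 0.643 and 0.189. On chromosome 19 it fell into the gap of 11 bp in 8 animals, and in Tough 6, Tender 2, Tender 4 and Tender 5 into the interval before it, 31.5 bp to the left. An animal was taken to share the split of the pool where its log-likelihood there was within 2 of its best, and by this measure 12 animals shared it on chromosomes 8 and 21 and 10 on chromosome 19. The exceptions were Tender 4 and Tender 5, whose log-likelihood was 4.94 and 7.82 below its best. The model takes CpGs on the same read as independent, so its differences in log-likelihood are too large where CpGs share reads. In these animals the last methylated CpG of the border, 57632196, was at 41.9% and 33.3%, against 56.0% to 83.3% in the 6 Tough animals and 42.9% to 81.0% in the other 4 Tender animals. The counts of animals are not comparable between borders. On chromosomes 8 and 21 the rule had already set low and high CpGs on either side of a gap of 102 bp and 146 bp. A shared split there does not show a shared position, since no cytosine was measured within the gap.

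On chromosome 8 an animal had nearly the same level at all CpGs of the methylated stretch, while animals differed. The stretch spans 49 bp on 1 strand, about the length of a read, so its CpGs were largely covered by the same reads. Their likeness within an animal is thus not that of independent measurements. The median over the 11 CpGs ran from 48.1% in Tough 6 and 53.2% in Tough 2 to 81.2% in Tender 1 and 82.5% in Tough 5. Within an animal the 11 CpGs lay within 2.23 percentage points of each other in Tender 1 and within 14.2 in Tough 1, with the other animals between, except for Tough 2. In Tough 2 the CpG at 106690478 had 0% with 47 reads, which allows up to 6.38%, while its other 10 CpGs were between 44.7% and 55.3%. This CpG was singled out after its values were seen, and it lies in the methylated window, whose level in Tough 2 was 50.2% without it.

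The windows of the borders varied more between animals than most windows of their class, with 1 exception. Over the 12 animals, the unmethylated windows had SDs of 5.26 on chromosome 19, 5.02 on chromosome 21 and 2.86 percentage points on chromosome 8, against a median of 1.26 over the 47538 autosomal windows under 10% with 3 or more cytosines, where they lay at the percentiles 97.8, 97.4 and 88.3. The methylated windows of chromosomes 21 and 8 had SDs of 10.8 and 12.6, against a median of 4.93 over the 19600 such windows above 70%, at the percentiles 93.6 and 97.2. The exception was the methylated window of chromosome 19, with an SD of 3.81 at the percentile 33.2. The percentiles were not adjusted for the level or the depth of a window.

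The Tough and the Tender group were compared at the borders, a contrast that the rule did not use, since it pooled all animals. A window was called where its adjusted p in a logistic regression with correction for overdispersion was under 0.05 and its groups differed by more than 25 percentage points. This held for 42 of 193249 windows (0.0217%) and for none of the 6 border windows. At an unadjusted p-value under 0.05 there were also 0 of the 6, against 16938 windows of all (8.76%), and limma on log2 ratios and the F-test each called 0 of all windows, with 9733 and 10864 at an unadjusted p-value under 0.05. None of the 26 border cytosines passed the same criteria, against 121 of 635469 (0.0190%), and the F-test called none of them either. An unadjusted p-value under 0.05 was found in 1 of the 26 by either test, against 52681 (8.29%) of all cytosines by the first. This was 106690334 in the unmethylated window of chromosome 8, with a difference Tender minus Tough of 4.31 percentage points (adjusted p = 0.396 by logistic regression), with 14.3% in Tender 6, 5.26% in Tender 4 and 0% in all other animals.

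On chromosome 8 the methylated window was at 43.1%, 60.8% and 82.9% (lowest, median and highest animal) in the Tough group and at 65.7%, 74.8% and 81.3% in the Tender group. The groups overlapped, with 4 Tough animals below the lowest Tender animal and 1 above the highest. The Tough mean was 61.2% ± 14.7 and the Tender mean 74.2% ± 5.41 (SD, n = 6 each), and the difference in pooled level of 9.001 percentage points had an adjusted p-value of 0.757 by logistic regression. The median coverage of a cytosine in this window overlapped as well, with 30 to 114 reads per Tough animal and 23 to 99 per Tender animal.

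The height of the step was compared with limma over all 22955 pairs. For Tough animals the mean step on chromosome 8 was 60.1 ± 14.6 percentage points and for Tender animals 71.9 ± 4.48 (SD, n = 6 each), a difference of 11.8 (SE 5.79, 95% interval -1.07 to 24.7, adjusted p = 0.967). Without Tough 5, the highest Tough animal, this difference was 16.4 with an unadjusted p of 0.00320 and an adjusted p of 0.972 by limma, and without Tough 2 it was 8.43. On log2 ratios of methylated to unmethylated reads, the chromosome 8 difference was 0.222 (SE 0.726, unadjusted p = 0.763 by limma). In percentage points, with the CpG that was at 0% in Tough 2 left out of the window in all animals, the difference was 10.7 (exact two-sided permutation test, unadjusted p = 0.0844). On chromosome 19 the Tough mean was 76.6 ± 6.69 and the Tender mean 73.8 ± 4.89, which differed by -2.80 (SE 3.17, 95% interval -9.85 to 4.26, adjusted p = 0.967). On chromosome 21 these means were 67.9 ± 8.59 and 71.9 ± 8.62, which differed by 4.02 (SE 4.63, 95% interval -6.31 to 14.3, adjusted p = 0.972). None of the 3 differences passed the test, their intervals all held 0, and limma called 0 of the 22955 pairs (0%), with 1054 at an unadjusted p-value under 0.05. The exact two-sided permutation test over the 924 splits of the animals, whose smallest p is 0.00216, gave unadjusted p = 0.0909 on chromosome 8, 0.416 on chromosome 19 and 0.442 on chromosome 21, with 1130 of all pairs at an unadjusted p-value under 0.05. Its 0 calls after adjustment over all pairs say nothing, since 994 pairs would have to reach the smallest p before any could pass.

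**Figure D5:**
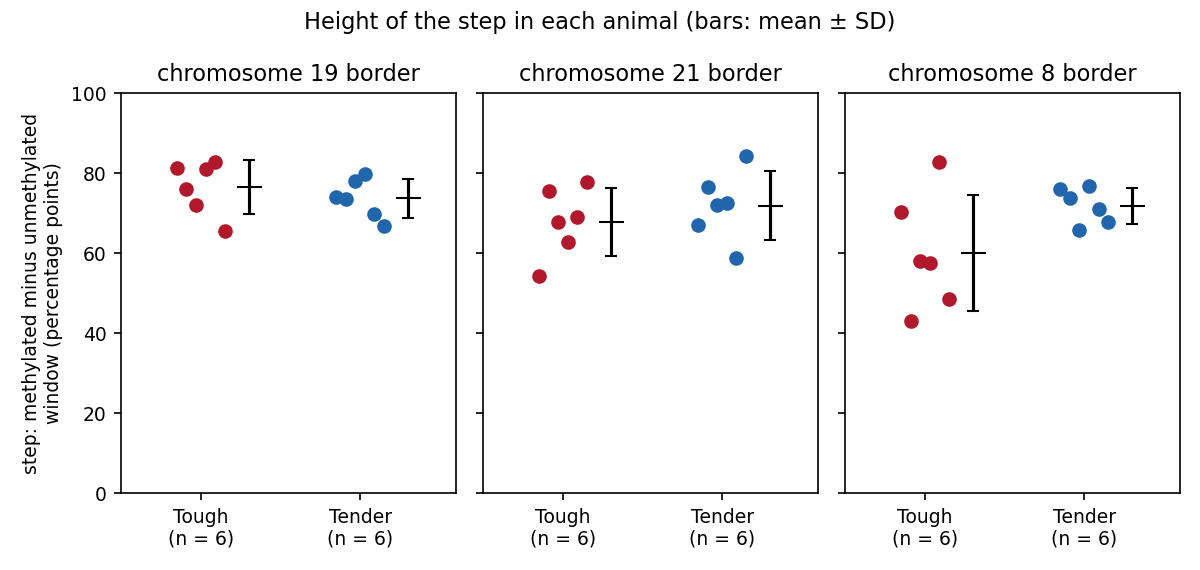
Height of the step in percentage points (methylated minus unmethylated window, vertical axis from 0) in each animal at the 3 borders, with Tough animals in red and Tender animals in blue; black bars are the mean ± SD of 6 animals. The groups overlap at every border, and on chromosome 8 the Tough animals run from 43.1 to 82.9 and the Tender animals from 65.7 to 76.9.

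CpG by CpG, steps as high as that of chromosome 19 were found at many other places. Among 408025 pairs of neighbouring autosomal CpGs at most 50 bp apart, 2961 (0.726%) differed by at least the 55.0 percentage points of the chromosome 19 step. A CpG under 10% beside one above 70% was found in 310 of 231760 neighbours 1 to 10 bp apart (0.134%), 334 of 123735 at 11 to 25 bp (0.270%) and 269 of 52530 at 26 to 50 bp (0.512%). At the distances of the gaps on chromosomes 8 and 21 it was found in 44 of 14132 neighbours over 100 and up to 200 bp apart (0.311%), and at 51 to 100 bp in 29 of 14680 (0.198%), so the share did not rise steadily with distance. Among the 231616 runs of 4 CpGs with gaps of at most 50 bp, 74 had a second CpG unlike both its neighbours, and the third CpG was not compared in this way. In 5 runs, 2 CpGs under 10% stood beside 2 above 70%. None of these 5 was a border by the rule, since in each the change fell inside a single window of 100 bp. The shortest change among them was on chromosome 5 between 26562226 at 78.5% and 26562231 at 1.40%, 5 bp apart, with strands merged. Taking the mean of the 2 CpGs on each side, 11 of 12 animals there had 1 side under 10% and the other above 70%. In the other runs the change took 7 to 16 bp and this was so in 7 to 11 animals.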

How the data were processed

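DNA of *longissimus thoracis* muscle of 12 animals was measured by RRBS with 1 library each. Per the labels and methods, trimming was done with Trim Galore 0.4.1, alignment to ARS-UCD1.2/bosTau9 with Bismark 0.23.0, and filtering (at least 10 reads per cytosine) and normalization of coverage with methylKit 1.8.1. The values in the deposited table are a score and not a read count, since the authors had scaled coverage, methylated and unmethylated reads by 1 factor per animal and rounded them. A test for read counts had been planned, and its logistic model was kept because methylKit fits it to scaled coverage. Reads before scaling were recovered from the factors for an alternative. Mismatches in coverage or in methylated or unmethylated reads came to 234. The number of per-sample columns left unused was 0.

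Methylation is methylated reads over all reads, and both strands are separate rows. The groups come from the labels. The methods give shear force at another day of aging than the labels, with the same groups. Replicate numbers only name animals. The rule of the report was applied to the pool. Windows and cytosines were fitted with a logistic model, McCullagh-Nelder overdispersion (at least 1) and a chi-square test, and steps with limma 3.58.1 in R 4.3.3, with Benjamini-Hochberg adjustment over the whole table. Python 3.11.15, NumPy 2.4.6, pandas 2.3.3 and SciPy 1.17.1 were used. Intervals of the step use the SE of limma, which also draws on the spread of all pairs, with 10 degrees of freedom. The p-values of limma use more degrees of freedom, so the intervals are slightly wider than these p-values imply. The transition width is the distance between the last CpG at 10% or less and the first at 70% or more of a monotone fit weighted by reads. The fits and splits were tested on simulated data.

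The members and lists were chosen with earlier results of these data known. The naming rule took borders by step, number of CpGs, spread of splits, calls and closeness to the thresholds, and with 3 borders it named all. Its gene lists could not be applied without an annotation of this build, and no sequence is printed for the same reason. The alternatives were other thresholds, rows per window, window sizes and grids, an unweighted mean, merged strands, a minimum of 20 reads, reads before scaling, other tests and leaving out each animal. Chosen after seeing the data were the count off the autosomes, windows with 1 or more rows, the rule for each animal alone, neighbouring CpGs without windows, the permutation test of steps and the chromosome 8 step without the CpG at 0% in Tough 2.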

Additional observations from a re-analysis of the deposited data

Results flagged for a closer look

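Of 70 groups of 6 values tested, for the windows, steps and cytosines of the borders, 5 held a value whose distance to the nearest other animal was above Dixon's 95% critical share of the range of the group. For independent, normally distributed values chance gives about 1 in 20 such groups. That share may not hold here, since many values were at 0% and the steps, windows and cytosines share reads. Groups without any range are among the 70 but could not be flagged. Tough 3 had 6.06% in the unmethylated window of chromosome 8, against 0% to 0.763% in the other Tough animals, and it had 27.3% with 11 reads at 106690344, where the other Tough animals had 0%, and 9.09% at 106690321. At 106690334 Tender 6 had 14.3%, against 0% to 5.26% in the other Tender animals. Tough 6 had 40% at 57632270 on chromosome 19, against 0% to 10% in the other Tough animals, and 56.5% at 24613700 on chromosome 21, against 5.71% to 24.4%. Tough 6 was also the animal with the highest unmethylated window on both chromosomes, 18.0% and 20.97%.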

How the results depend on the processing

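The number of borders, 3 by the rule, depended on how the rule was set. It was 0 with limits of 5% and 80% and 14 with 20% and 60%. It was 1 with 5 or more rows per window, 1 with an unweighted mean (the chromosome 19 border), 1 on a grid shifted by 50 bp (the far side of the chromosome 8 stretch), 1 with windows of 50 bp (chr5:26561901-26562000), 10 with windows of 200 bp, 131 with 1 or more rows per window and 4 with 2 or more. The pooled level of the chromosome 8 methylated window, 71.1%, weights animals by their reads. Tough 5 and Tender 1, with the highest summed coverage there, also had its highest levels, 82.9% and 81.3%. With at least 20 reads per cytosine in every animal the number of borders was 0, of 3222 pairs that were left, and on chromosome X, the mitochondrial genome and unplaced scaffolds it was 0 of 84. Reads before scaling, merged strands and leaving out cytosines that spanned 5% to 95% between animals gave 3 each. Leaving out 1 animal gave 1 to 3 borders, with 1 without Tender replicate 1. The cause of these changes was not tested. The number of borders whose split all animals shared was 2, and 1 where the same interval was asked for and 1 where 20 bp were allowed. The median transition width of 102 bp was the gap of the chromosome 8 border, within which no cytosine was measured. Under all its alternatives it moved by less than the SD between animals, 26.6 bp. It was 102 or 123 bp in each of them, since a width can only be a distance between measured CpGs. The comparison with the SD could therefore hardly fail, and it does not show how sharp the change is. A border that no longer reached 10% was counted as the widest, and the SD was taken over the 10 animals with a finite median width. Calls between groups were 0 for border windows, cytosines and steps under every alternative run. Over all windows, calls were 42, and 0 by the F-test, 266 without correction for overdispersion, 303 with a difference above 10% and 41 to 81 without 1 animal. Over all cytosines they were 121, and 0, 1431, 549 and 128 to 196 in the same order. The 121 alternatives for single windows and steps kept the direction of the group difference in step and moved window levels by less than the SD between animals. For the window levels, most alternatives left out 1 animal. Leaving it out moves a pooled level by only a fraction of that animal's distance from the pool. The comparison of window levels with the SD could therefore hardly fail, and it does not show how stable the levels are. Without correction for overdispersion, 2 border windows had an adjusted p under 0.05 with differences of 1.95 and 9.001 percentage points, and 2 border cytosines with 10.1 and 13.9. Without Tough replicate 5, 8 of 26 border cytosines had an unadjusted p under 0.05, and 1 of them an adjusted p of 0.00909 by logistic regression with a difference of 17.0. All these differences were under the limit of 25. No paired analysis was possible because the replicate numbers only follow the order of the samples. Depth limits the single CpGs, where 13 to 31 reads per animal lay behind the chromosome 19 step, and the RRBS design limits the position of the other borders, since no cytosine was measured within their gaps.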

Other observations

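The 200 bp windows held 10 borders, of which those on chromosomes 19 and 21 were the same as with 100 bp. The others lay on chromosomes 1, 3, 5, 18, 20 and 25, and among them the highest contrast was at chr5:11908601-11909000, with 82.8% over 8 cytosines on the left and 0.466% over 5 on the right. The 4 runs of CpGs other than that on chromosome 5 in which 2 CpGs under 10% stood directly beside 2 above 70% lay on chromosomes 2, 9, 13 and 29. The step of an animal was taken here between the means of the 2 CpGs on each side. On chromosome 2 the pooled level changed from 2.66% at 58848549 to 96.7% at 58848558. The step there had a median of 95.5 percentage points and a lowest value of 60.9 over the 12 animals. On chromosome 29 the pooled level changed from 87.5% at 45280208 to 0% at 45280224, with a median step of 84.3 and a lowest value of 67.0. On chromosome 13 it changed from 9.35% at 45100741 to 96.8% at 45100753, and the lowest step was 52.9. These positions give the plus-strand cytosine of a CpG, with reads of both strands merged.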
